A study of Mus musculus with 48 samples.

Results

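Mouse E14 embryonic stem cells labelled as knockouts of both KAT6A and KAT6B were compared with E14 cells labelled as a knockout of KAT6A alone, after 2 days of differentiation as embryoid bodies. The comparison used 6 of the 48 libraries of the series, 3 labelled KAT6A-/-; KAT6B-/- dKO (double knockout) and 3 labelled KAT6A-/- KO, chosen by genotype and day from the labels. Both groups carry the KAT6A knockout by their labels, so the contrast asks what the added KAT6B knockout does in KAT6A knockout cells. The cells had been moved from adherent culture with LIF to non-adherent plates without LIF, in medium with 10% serum. Retinoic acid enters this protocol only on day 4, after the samples described here. E14 wildtype and KAT6B-/- KO cells of the same day, with 3 libraries each, gave the matching contrast without the KAT6A knockout. The same 4 genotypes on days 0, 6 and 15 make up the rest of the series. The labels do not describe the edits or say whether a genotype is 1 clone, so a difference between genotypes and a difference between clones cannot be told apart.

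KAT6A (MOZ) and KAT6B (MORF) are paralogous histone acetyltransferases of the MYST family. Each works in a complex with a BRPF scaffold, an ING reader and MEAF6, acetylates histone H3 near the start sites of active genes, and is needed for normal development. On leaving the naive state, mouse embryonic stem cells lose naive transcription factors and gain those of the formative epiblast, before they choose a germ layer.

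Gene levels are given in CPM, the count of a gene per 1e+06 counts of its library, with library totals scaled by the trimmed mean of M values (TMM) over the 12 libraries of day 2 unless stated otherwise. Differences are log2 fold changes of the double knockout over the KAT6A knockout with their standard error (SE) from a fit to all 12 libraries. A gene was called at an adjusted p under 0.05, by edgeR's quasi-likelihood test with Benjamini-Hochberg adjustment over all 19594 genes tested.

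The libraries held 35.71 to 43.56 M counts in the KAT6A knockout and 42.58 to 58.89 M in the double knockout (M, 1e+06 counts). Both lines expressed markers of cells leaving the naive state. From day 0 to day 2, Fgf5 went from 3.85 ± 0.983 to 37.1 ± 10.8 CPM (SD, n = 3, scaled over all 48 libraries) in the KAT6A knockout and from 4.38 ± 2.39 to 26.5 ± 11 CPM in the double knockout. Klf4, a naive factor, went from 121 ± 6.5 to 34.7 ± 17.7 CPM and from 94.3 ± 17.9 to 24.8 ± 1.68 CPM, while Pou5f1 stood at 540 ± 76 and 499 ± 39.5 CPM on day 2. Double knockout replicate 3 stood apart from the other 2 of its group. On the second principal component of the 12 libraries (16% of the variance) it lay at -20.2, against 44.5 and 51.4 for replicates 1 and 2. Replicate 3 was also the lowest of its group in the KAT6A knockout (-33, against -3.35 and 5.1) and in E14 (-22.6, against 4.6 and 1.09). In the KAT6B knockout it was the highest (7.48, against -15.1 and -19.9). The mitochondrial share of counts of double knockout replicate 3, 3.09%, was close to the 3.02% of KAT6A knockout replicate 3. It was above the 1.66% of the other double knockout libraries. A high share did not go with replicate number 3 in the other genotypes. Replicate 3 was at 1.8% in E14 and 1.39% in the KAT6B knockout, whose replicate 2 was at 3.16%. Counts of calls for the main contrast are also given without double knockout replicate 3.

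Of the 19594 genes tested, 3 passed the test (0.0153%). Luzp1 and Kdm1a fell (0.0102% of genes were called lower) and Magea9 rose (0.0051% called higher) in the double knockout. Luzp1 encodes a leucine zipper protein of the actin cytoskeleton and the centrosome. Kdm1a encodes LSD1, a demethylase of histone H3 that works in repressive complexes and is needed to silence enhancers when stem cells differentiate. Magea9 belongs to the melanoma antigen family, a set of X-linked genes usually limited to the germ line.

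Luzp1 and Kdm1a are neighbours that run towards each other, with start sites 132962 bp apart, so their promoters are not adjacent. The 250 bases before each start site are shown, as RefSeq gives them for build GRCm38.p6. They are read 5′ to 3′ on the strand of the gene with each CG dinucleotide in capitals. The Luzp1 stretch is chr4:136469511-136469760 on the plus strand, and the Kdm1a stretch is chr4:136602724-136602973 on the minus strand.
Luzp1: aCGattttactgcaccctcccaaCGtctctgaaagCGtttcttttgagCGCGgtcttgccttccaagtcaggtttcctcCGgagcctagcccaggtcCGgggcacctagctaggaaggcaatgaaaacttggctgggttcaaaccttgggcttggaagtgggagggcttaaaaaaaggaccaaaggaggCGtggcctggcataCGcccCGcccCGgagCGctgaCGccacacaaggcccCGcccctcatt
Kdm1a: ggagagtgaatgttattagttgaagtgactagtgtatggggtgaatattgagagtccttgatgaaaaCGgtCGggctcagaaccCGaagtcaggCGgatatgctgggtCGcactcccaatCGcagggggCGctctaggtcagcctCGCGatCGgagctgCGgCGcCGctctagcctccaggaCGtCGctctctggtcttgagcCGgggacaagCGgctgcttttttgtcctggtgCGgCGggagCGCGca
The Luzp1 stretch holds 14 CG dinucleotides and the Kdm1a stretch 21. Of 32851 promoters in the same table and of the same length, 29.4% hold at least 14 and 16.3% hold at least 21, against a median of 6. Of the 3 called genes, 2 were matched in that table and Magea9 was not.

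The targeted genes were read first, since they bear on the labels. Kat6a was at 129.4, 131.3 and 133.3 CPM in the 3 E14 libraries and at 64.52, 73.84 and 58.08 CPM in the KAT6A knockout. In the double knockout it was at 72.11, 105.5 and 77.94 CPM. Both knockout lines lay below every E14 library, at 49.9% and 64.9% of the E14 mean, and their ranges overlapped each other (log2 difference 0.38 ± 0.14 SE, adjusted p = 0.5495). Kat6b was at 256.2, 224 and 213 CPM in the KAT6A knockout and at 151.1, 174.9 and 165.4 CPM in the double knockout, where every library was below every KAT6A library. This difference of -0.50 ± 0.16 did not pass the test (adjusted p = 0.471), and the double knockout mean was 70.9% of the KAT6A mean and 87.3% of the E14 mean. In E14, Kat6b was at 164.5, 161.6 and 236.4 CPM, a range that overlaps that of the double knockout, and in the KAT6B knockout at 87.65, 119 and 128.9 CPM. Counts are summed over each gene and neither gene was near 0 in its knockout. The share of these reads that comes from an edited transcript was not tested.

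**Figure D1:**
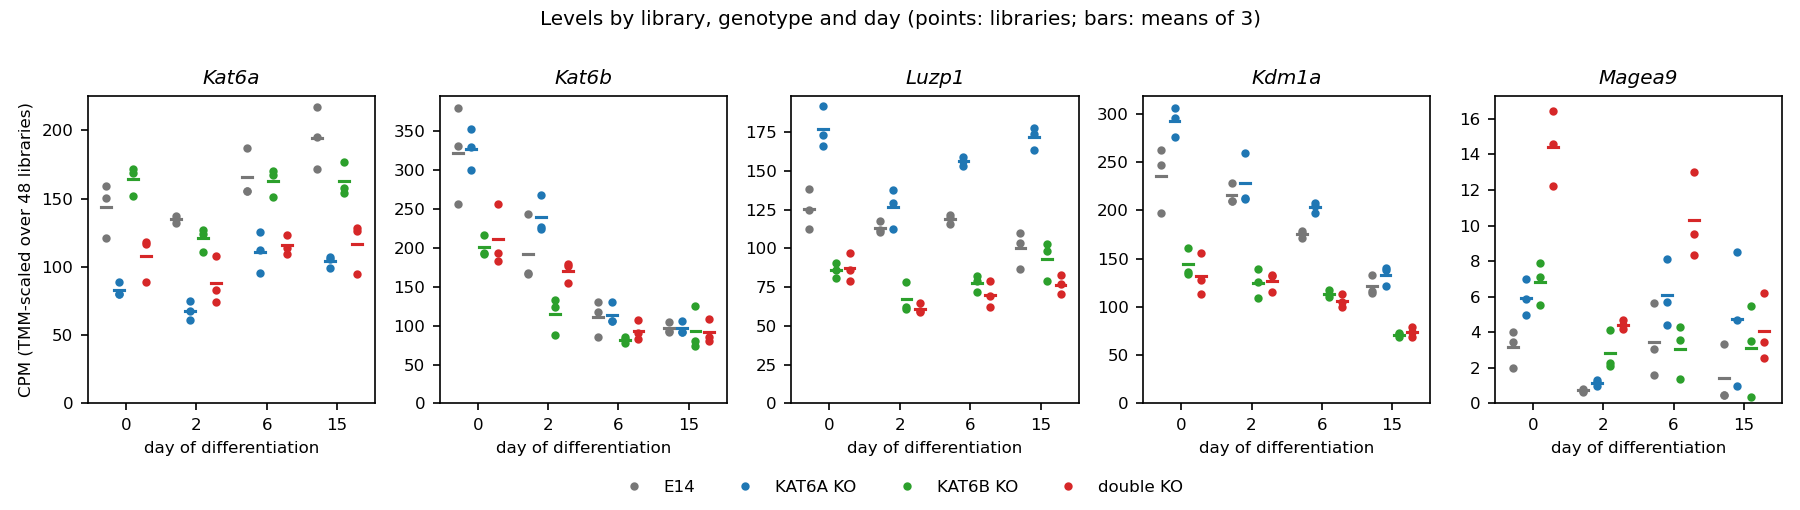
Level of Kat6a, Kat6b, Luzp1, Kdm1a and Magea9 in CPM (TMM-scaled over all 48 libraries) against day of differentiation. Points are libraries, bars are means of 3, and colours are the 4 genotypes. On day 2 the double knockout libraries of Luzp1 (58.91 to 64.46 CPM) and Kdm1a (115.8 to 133.3 CPM) sit at about the level of the KAT6B knockout and below both E14 and the KAT6A knockout.

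Luzp1 (ENSMUSG00000001089) was at 131.6, 111.1 and 123.1 CPM in the KAT6A knockout and at 57.28, 58.32 and 60.37 CPM in the double knockout. The groups are well separated, and the double knockout held 48.1% of the KAT6A mean. The log2 difference was -1.06 ± 0.12 (adjusted p = 0.00292), lower in 3 of 3 libraries. E14 libraries lay at 108.3, 108.8 and 114.4 CPM, near those of the KAT6A knockout. Kdm1a (ENSMUSG00000036940) was at 247.6, 209.5 and 202.3 CPM in the KAT6A knockout and at 129.6, 128.7 and 108.5 CPM in the double knockout. Again no library of one group reached the other, and the double knockout mean was 55.6% of the KAT6A mean. The log2 difference was -0.85 ± 0.13 (adjusted p = 0.0429).

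In the build of the count table, GRCm39, Luzp1 spans chr4:136197072-136282091 on the plus strand and Kdm1a spans chr4:136277851-136330034 on the minus strand. The 2 genes run towards each other and overlap by 4241 bp at their ends, with 132962 bp between their start sites. The library kit keeps strand, but whether counting used it is not given in the sources used here, so reads within the overlap may not be assigned to 1 gene. Within 1000 kb on each side, 31 further genes were tested and none was called. Their log2 differences ran from -0.99 (Gm24362) to 1.07 (Myom3), with a median of 0.05, and none had an unadjusted p under 0.05 in the direction of Luzp1 and Kdm1a. The nearest of them were the serotonin receptor gene Htr1d at 0.29 ± 0.61, 6030445D17Rik at 0.25 ± 0.48, and the ephrin receptor gene Ephb2 at 0.24 ± 0.17. Hnrnpr, which encodes an RNA-binding protein, stood at -0.07 ± 0.10. These 4 were picked by position after the values were seen.

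**Figure D2:**
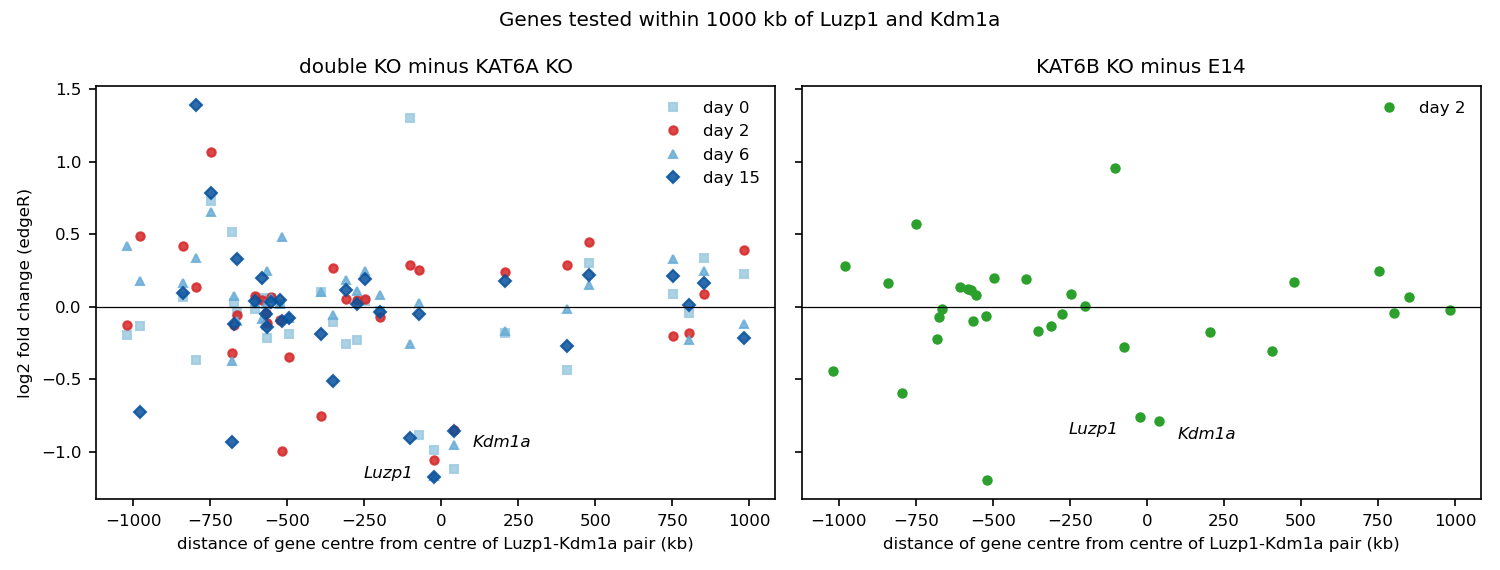
Log2 fold change of each gene tested within 1000 kb of Luzp1 and Kdm1a against the distance of its centre from the centre of the pair in kb. On the left is the double knockout over the KAT6A knockout on 4 days, and on the right the KAT6B knockout over E14 on day 2. Luzp1 and Kdm1a sit at -0.76 or lower in all 5 comparisons, while other genes lie on both sides of 0.

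Magea9 (ENSMUSG00000031179, chrX:63217154-63222384, plus strand) was at 1.235, 1.215 and 0.9464 CPM in the KAT6A knockout and at 4.27, 4.563 and 3.94 CPM in the double knockout. The level is low, yet the lowest double knockout library was well above the highest KAT6A library. The log2 difference was 1.91 ± 0.29 (adjusted p = 0.0429). Only 1 other gene named Magea with a number was tested, and near-identical family members can share reads, so which copy these reads come from is uncertain.

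The fit of only the 6 libraries called none of the 3 genes (Luzp1 adjusted p = 0.0565, Magea9 0.149, Kdm1a 0.245), with 1294 genes at an unadjusted p under 0.05, against 1518 in the fit of 12. With the replicate number as a block, 5 genes were called (0.0255%): the same 3, the tensin gene Tns4 (log2 difference 1.37, adjusted p = 0.0335) and Gm14569 on the X chromosome (1.93, adjusted p = 0.0163). Luzp1 was called in 5 of the 6 fits that each left out 1 library and was lost without double knockout replicate 1 (adjusted p = 0.057). Kdm1a and Magea9 were each called in 1 of those 6 fits, the one without double knockout replicate 3, with Kdm1a up to an adjusted p of 0.277 and Magea9 up to 0.354 over the 6.

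**Figure D3:**
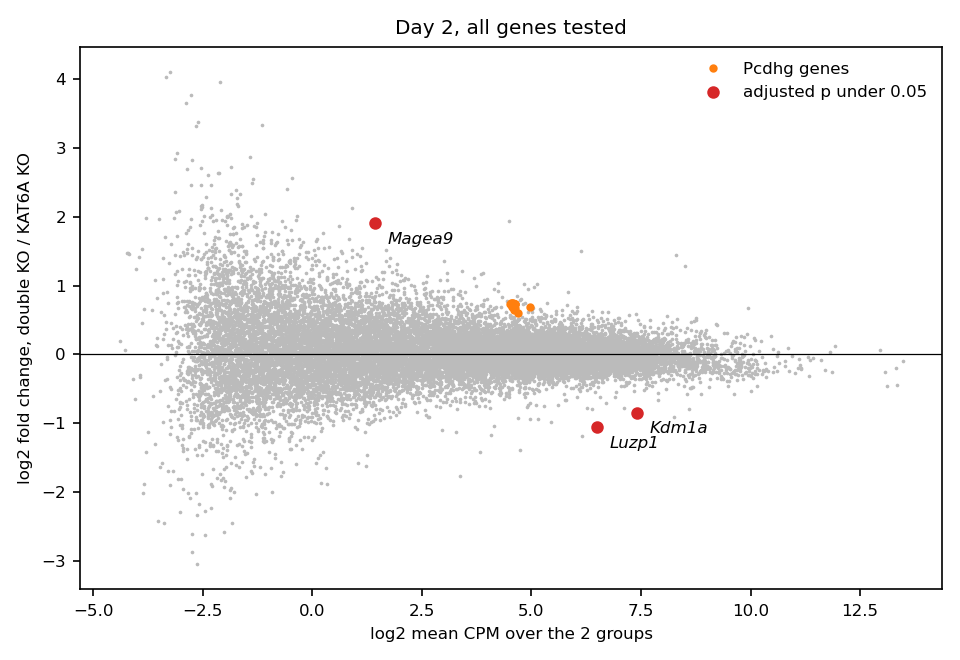
Log2 fold change of the double knockout over the KAT6A knockout on day 2 against log2 of the mean CPM of the 2 groups, for all 19594 genes tested. Red points are the 3 genes at an adjusted p under 0.05 and orange points are the 22 Pcdhg genes, which lie between 0.60 and 0.74.

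More genes leaned upwards than downwards among those short of the threshold. At an unadjusted p under 0.05 there were 1518 genes (7.75%), 1007 on the higher side (5.14%) and 511 on the lower side (2.61%). That total moved to 3207 without double knockout replicate 3, 854 without its replicate 1 and 795 without its replicate 2. The groups did not overlap in 2248 genes (11.5%), 1282 on the higher side (6.54%) and 966 on the lower side (4.93%). DESeq2 on the same counts called 110 of 19623 genes (0.561%), 95 higher (0.484%) and 15 lower (0.0764%). Of its calls, 22 are Pcdhg genes and 27 are among the 30 genes named by rank here. Their adjusted p in edgeR ran up to 0.378. Without double knockout replicate 3, edgeR called 35 of 19919 genes (0.176%), 26 higher (0.131%) and 9 lower (0.0452%). That fit keeps KAT6A knockout replicate 3, the library of the same number, so it is not balanced over the replicate numbers. The fits without any other library of the 2 groups called 0 or 1 gene. The size of the list thus depends on which libraries are kept.

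Besides Magea9, 14 genes were named on the higher side by their rank of p, all with groups that do not overlap and none called over the 12 libraries. Tns4, a focal adhesion protein, was at 5.487, 4.781 and 3.289 CPM in the KAT6A knockout and at 13.14, 12.19 and 9.33 CPM in the double knockout (log2 difference 1.36 ± 0.22, adjusted p = 0.0856). Gata2, a transcription factor of trophoblast and blood progenitors, was at 2.097, 1.68 and 1.23 CPM and at 4.801, 5.63 and 3.836 CPM (1.51 ± 0.27, adjusted p = 0.0991). Lgals9, the gene of the sugar-binding protein galectin-9, was at 7.297, 5.66 and 6.199 CPM and at 13.87, 17.43 and 13.17 CPM (1.22 ± 0.22, adjusted p = 0.0991). In each of these genes double knockout replicate 3 was the library nearest to the KAT6A knockout.

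H6pd, which makes NADPH in the endoplasmic reticulum, differed by 0.84 ± 0.15. Ggt1, a glutathione-cleaving enzyme, differed by 1.08 ± 0.19, and Nckap1l, a WAVE complex subunit of blood cells, by 1.11 ± 0.21. The actin and adhesion genes Plekhg1 (0.71 ± 0.13), Afap1 (0.74 ± 0.14) and Plxnd1 (0.74 ± 0.14), the last a semaphorin receptor, and the RNA-binding protein gene Rbms2 (0.64 ± 0.12) had adjusted p-values of 0.0991 to 0.147. Zscan4-ps2, a pseudogene of a 2-cell embryo family, was at 0.6895, 0.4135 and 0.5205 CPM and at 1.836, 1.748 and 1.918 CPM (1.76 ± 0.32, adjusted p = 0.0991). Without double knockout replicate 3, Tns4, H6pd, Plekhg1, Ggt1, Afap1, Plxnd1, Gata2 and Lgals9 were called, at adjusted p-values of 0.0263 to 0.0415.

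On the lower side, 13 further genes were named, none of them called. H1f5, a replication-dependent linker histone, was at 555.8, 427 and 499.6 CPM in the KAT6A knockout and at 273.7, 245 and 332.2 CPM in the double knockout (log2 difference -0.80 ± 0.17, adjusted p = 0.147). Tro, the adhesion protein trophinin, was at 106.9, 103.2 and 132.9 CPM and at 67.09, 67.81 and 87.67 CPM (-0.62 ± 0.13, adjusted p = 0.147). Trps1, a GATA-type repressor, was at 35.1, 40.22 and 41.26 CPM and at 22.52, 21.88 and 27.06 CPM (-0.71 ± 0.16, adjusted p = 0.162). Groups that do not overlap were a condition for naming a gene, so no library of these 3 genes could cross between the groups.

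Others with a known role were Adamts15, a secreted metalloprotease (-0.74 ± 0.17), Npr3, the clearance receptor of natriuretic peptides (-1.42 ± 0.35), and Socs2, a suppressor of cytokine signalling (-0.52 ± 0.13). Nsd2, a histone H3 methyltransferase, differed by -0.49 ± 0.13, the protease Ctsl by -0.66 ± 0.17, the zinc transporter Slc39a6 by -0.51 ± 0.13 and the pterin reductase Qdpr by -0.55 ± 0.14. The zinc finger genes Zhx1 (-0.75 ± 0.18) and Zfp827 (-1.04 ± 0.26) and the histone gene H4c17 (-0.58 ± 0.13) complete the set. Adjusted p-values of these 10 genes ran from 0.172 to 0.306. Tro, Zhx1 and Nsd2 were called without double knockout replicate 3.

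Gene lists were read next, 35 in all, by pathway and cell type. Of their 545 genes tested, edgeR called 0, with or without the replicate block, and 59 on the higher side and 15 on the lower side had an unadjusted p under 0.05 (5.14% and 2.61% of all genes). DESeq2 called 29 higher and 1 lower (0.484% and 0.0764% of all genes). Of the 59, and of the 29, 22 are Pcdhg genes, which share reads. Each list is given by these counts and by its median log2 difference, beside a median of 0.0021 over all genes.

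**Figure D4:**
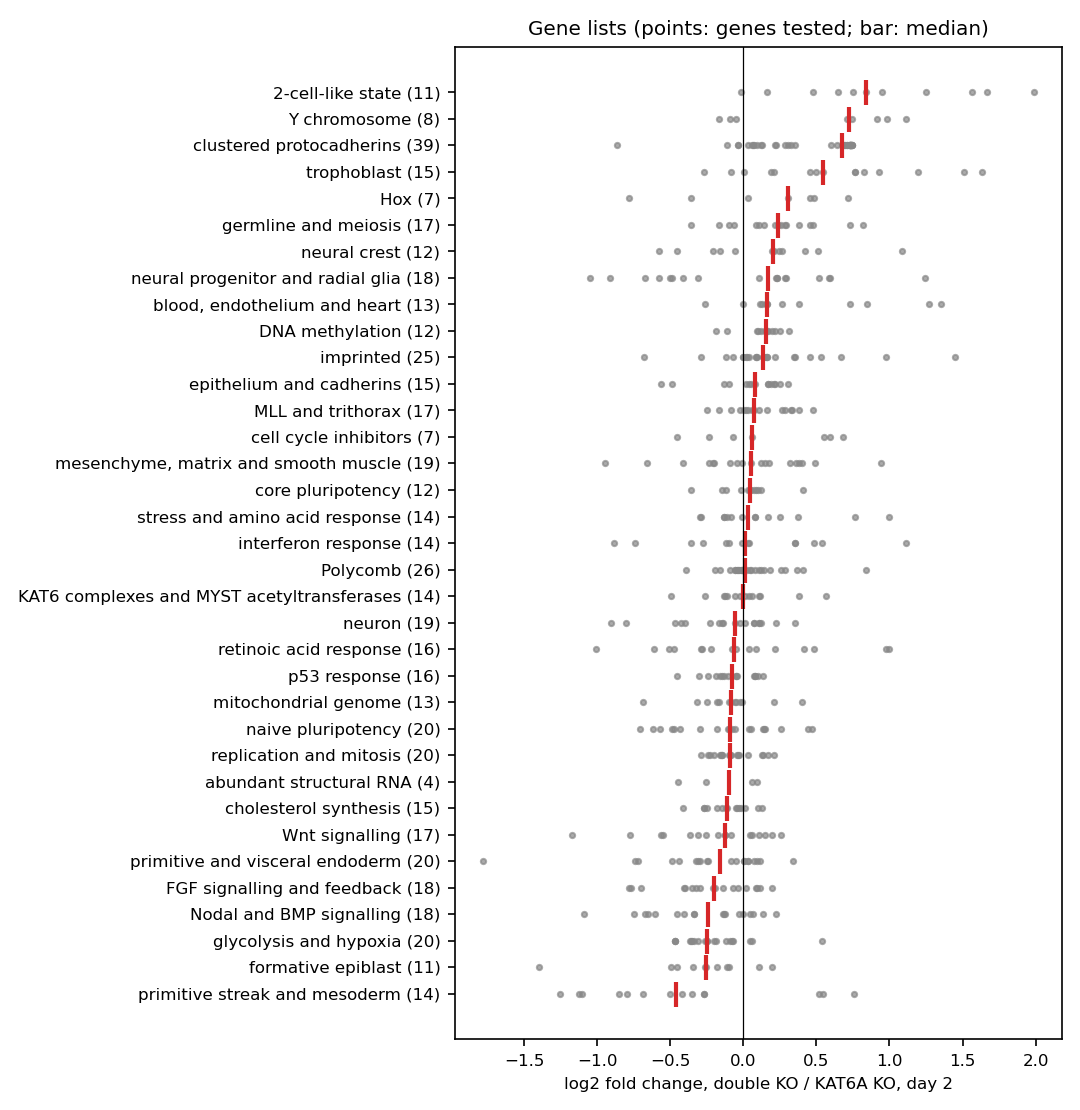
Log2 fold change of the double knockout over the KAT6A knockout on day 2 for each tested gene of 35 lists (points), with the median of each list (red bar) and the number tested in brackets. The highest median is that of the 2-cell-like list (0.84) and the lowest that of primitive streak and mesoderm (-0.46).

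The 14 genes of the KAT6 complexes and of the MYST family were centred on 0 (median -0.01). Brpf3, a scaffold of MYST complexes, stood at 0.57 ± 0.19 (adjusted p = 0.465), and besides Kat6a and Kat6b no other member had an unadjusted p under 0.05. Among 26 Polycomb genes the median was 0.01, and 1 gene was at an unadjusted p under 0.05, Phf19 at 0.41 ± 0.17. Of 17 MLL and trithorax genes that gene was Ncoa6 (0.38 ± 0.15; median 0.08), and of 12 DNA methylation genes there was none (median 0.15; Tet1 at 0.31 ± 0.17).

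No marker of the pluripotent states was called. None of 12 core pluripotency genes had groups that do not overlap. Pou5f1 stood at -0.12 ± 0.12 and Dppa2 at 0.41 ± 0.16 (adjusted p = 0.589). Of 20 naive genes, 12 were on the lower side and 8 on the higher (median -0.09). Those on the higher side include Socs3 at 0.47 ± 0.34, Tbx3 at 0.44 ± 0.35 and Stat3 at 0.26 ± 0.17. All double knockout libraries were below all KAT6A libraries in 6 naive genes (against 4.93% of all genes). They are Manba at -0.71 ± 0.28, the nuclear receptors Nr0b1 at -0.62 ± 0.25 and Nr5a2 at -0.44 ± 0.32, Tdh, the threonine dehydrogenase of stem cells, at -0.57 ± 0.28, Prdm14 at -0.47 ± 0.29 and Zfp42, also known as Rex1, at -0.29 ± 0.31. In all 6 the KAT6A knockout mean was also above the E14 mean. Manba averaged 74.49 CPM in E14, 129.4 CPM in the KAT6A knockout and 79.3 CPM in the double knockout. For Zfp42 these means were 172.1, 323.1 and 263.4 CPM. Among the 6, the double knockout mean was below that of E14 only in Tdh (300.2 against 321 CPM). Of 11 formative genes 9 were on the lower side (median -0.26). Lef1, a nuclear effector of Wnt signalling, was at 44.07, 39.41 and 33.38 CPM in the KAT6A knockout and at 10.13, 8.377 and 25.76 CPM in the double knockout. Replicate 3 was the highest of the 3 double knockout libraries, and the log2 difference was -1.40 ± 0.41 (adjusted p = 0.431). Without that replicate Lef1 was called, at -2.07 ± 0.33 (adjusted p = 0.0395).

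Signalling lists leaned to the lower side without a called gene. Of 18 Nodal and BMP genes 14 were on the lower side (median -0.24), and the median was -0.13 over 17 Wnt genes and -0.20 over 18 FGF genes. The Wnt antagonist Notum was at 32.15, 21.87 and 16.06 CPM in the KAT6A knockout and at 7.434, 10.85 and 12.8 CPM in the double knockout (-1.17 ± 0.33, adjusted p = 0.378). E14 libraries held 7.192, 7.547 and 17.7 CPM of Notum. Its mean of 10.81 CPM in E14 was near the 10.36 CPM of the double knockout, against 23.36 CPM in the KAT6A knockout. The growth factor gene Fgf15 differed by -0.78 ± 0.27 (adjusted p = 0.496) and the early response gene Egr1 by -0.77 ± 0.35. Egr1 was at 23.15, 66.81 and 22.22 CPM in the KAT6A knockout and at 23.65, 21.75 and 20.37 CPM in the double knockout, so its difference rests on KAT6A knockout replicate 2 and spanned -1.04 to -0.05 when 1 library was left out. Of the 14 primitive streak and mesoderm genes 11 were on the lower side (median -0.46) at unadjusted p-values above 0.05. Their summed level spanned 32.8 to 148 CPM among the KAT6A libraries and 20.8 to 145 CPM among the double knockout libraries.

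Trophoblast genes were on the higher side in 13 of 15 (median 0.55). At an unadjusted p under 0.05 were 5, all higher, against 5.14% of all genes: Gata2, Hand1, Esx1, Plet1 and Krt7. Hand1, a factor of giant cells and mesoderm, was at 3.821, 1.809 and 1.585 CPM in the KAT6A knockout and at 5.133, 9.988 and 7.153 CPM in the double knockout (1.63 ± 0.40, adjusted p = 0.266). Esx1, a homeobox gene of the placenta, was at 1.896, 1.861 and 1.94 CPM and at 3.85, 4.79 and 4.423 CPM (1.20 ± 0.30, adjusted p = 0.266). The summed level of the 15 genes spanned 215 to 240 CPM and 225 to 316 CPM, which overlap, and no gene of the list was at 0 in all 6 libraries.

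The list for the 2-cell-like state, a rare state of stem cell cultures that expresses genes of the 2-cell embryo, had 10 of 11 genes on the higher side (median 0.84). Of these, 6 had groups that do not overlap, against 6.54% of all genes. Zscan4c was at 0.8905, 0.5686 and 0.5205 CPM in the KAT6A knockout and at 1.593, 1.839 and 2.419 CPM in the double knockout (1.57 ± 0.35, adjusted p = 0.172). Zscan4f differed by 1.25 ± 0.41 (adjusted p = 0.466). All levels were low: the 11 genes summed to 5.4 to 6.58 CPM and 9.45 to 12.9 CPM, and genes of the Zscan4 family share reads. In these bulk libraries, more cells of a type and more RNA per cell cannot be told apart. Of 17 germline genes 13 were on the higher side (median 0.23), led by the X-linked homeobox genes Rhox9 at 0.82 ± 0.27 and Rhox6 at 0.73 ± 0.26.

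Lists of later lineages had medians of -0.06 for neurons, 0.17 for neural progenitors, 0.20 for neural crest, 0.05 for mesenchyme and 0.17 for blood, endothelium and heart. The summed level of the 19 neuron genes was 305 to 391 CPM in the KAT6A knockout and 246 to 288 CPM in the double knockout. That of the 13 blood, endothelium and heart genes was 162 to 172 CPM and 181 to 198 CPM. In both lists the group ranges do not overlap, as in 11.5% of single genes. Stmn2 and Ina held a large part of the neuron sum, on average 106.8 and 82.93 CPM in the KAT6A knockout and 61.24 and 61.75 CPM in the double knockout. Neither of the 2 leading neuronal genes was called, Stmn2 at -0.80 ± 0.26 (adjusted p = 0.477) and Ina at -0.42 ± 0.19. The collagen gene Col1a2 stood at 0.94 ± 0.31, the neural crest factor Sox10 at 1.09 ± 0.37 and Cdh5, the cadherin of endothelium, at 1.27 ± 0.38, the last 2 near or under 2 CPM on average. Visceral endoderm genes had a median of -0.16 with no gene at an unadjusted p under 0.05. Retinoic acid response genes had leaders on both sides, Meis1 at 0.98 ± 0.28 and Stra6 at 1.00 ± 0.29 on the higher and Crabp1 at -0.61 ± 0.20 on the lower. Of 7 Hox genes none had an unadjusted p under 0.05 (median 0.31).

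Imprinted genes are expressed from 1 parental copy. Of 25 tested, 19 were on the higher side (median 0.13) and 4 had groups that do not overlap, all higher, against 6.54% of all genes. H19, a maternally expressed non-coding RNA, was at 197.3, 179.4 and 132.7 CPM in the KAT6A knockout and at 287.1, 604 and 500.5 CPM in the double knockout (1.45 ± 0.30, adjusted p = 0.149). Snrpn was at 323.4, 337.3 and 394.8 CPM and at 470.3, 505.9 and 550.3 CPM (0.53 ± 0.14, adjusted p = 0.296). Igf2, the paternally expressed growth factor gene beside H19, stood at 0.97 ± 0.30 and Peg10, a placental gene derived from a retrotransposon, at 0.67 ± 0.23.

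All 22 Pcdhg genes, the gamma cluster of neuronal adhesion protocadherins, had double knockout libraries above every KAT6A library, against 6.54% of all genes. Their log2 differences ran from 0.60 to 0.74 (median 0.73) at adjusted p-values of 0.147 to 0.266. Per library, the median CPM of the 22 was 20.5, 16.6 and 16.6 in the KAT6A knockout and 32.5, 29.1 and 27.4 in the double knockout. These genes share their last exons, and 17 of the 22 have the same end position in the table, so the 22 values count many of the same reads and are not 22 separate measurements. The 14 Pcdha genes, which share last exons of their own, had a median of 0.11 with none at an unadjusted p under 0.05.

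Of the 8 genes of the Y chromosome list, Uba1y was at 24.65, 21.06 and 18.76 CPM and at 38.12, 36.68 and 32.9 CPM in the double knockout (0.74 ± 0.16, adjusted p = 0.147). Zfy1 stood at 0.92 ± 0.23 (adjusted p = 0.277), while Ddx3y stood at -0.17 ± 0.15 and Eif2s3y at -0.09 ± 0.17. The Y chromosome was the only one with a median beyond 0.1, at 0.33 over 10 genes.

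Of 20 glycolysis and hypoxia genes 17 were on the lower side (median -0.25), and Ldha differed by -0.47 ± 0.16 (adjusted p = 0.483), while the hexokinase gene Hk1 differed by 0.54 ± 0.20. Of 15 cholesterol synthesis genes 12 were on the lower side (median -0.12), led by Cyp51 at -0.42 ± 0.15. Replication and mitosis genes had a median of -0.09 and p53 response genes of -0.08. The cell cycle inhibitor genes Cdkn2a and Cdkn2b stood at 0.56 ± 0.20 and 0.68 ± 0.27. In the stress list, Trib3, a pseudokinase gene, differed by 0.77 ± 0.29 and was at 15.89, 20.39 and 12.85 CPM in the KAT6A knockout and at 31.75, 39.07 and 12.75 CPM in the double knockout. Chac1, a glutathione-degrading enzyme, differed by 1.00 ± 0.42 and was at 8.187, 9.382 and 8.919 CPM and at 17.57, 28.99 and 6.393 CPM. In both genes double knockout replicate 3 was below every KAT6A library. Trib3 was called without it (log2 difference 1.11, adjusted p = 0.0263), and over the fits without 1 library Trib3 spanned 0.44 to 1.11 and Chac1 0.44 to 1.40. Interferon and mitochondrial genome lists had no gene at an unadjusted p under 0.05.

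The KAT6B knockout can also be read without the KAT6A knockout, as the KAT6B knockout against E14 on the same day. That contrast shares no library with the one above. Here edgeR called 0 of 19594 genes (0%), with 796 at an unadjusted p under 0.05 (4.06%), and DESeq2 called 23 (0.103%). Without KAT6B knockout replicate 1 the 796 became 1475. Luzp1, at 61.93, 58.75 and 75.55 CPM in the KAT6B knockout, differed from E14 by -0.76 ± 0.12 (adjusted p = 0.0598). Kdm1a, at 125, 104.8 and 134.5 CPM against 204.9, 203 and 221.4 CPM in E14, differed by -0.79 ± 0.13 (adjusted p = 0.066). Magea9, at 2.065, 3.934 and 2.214 CPM against 0.638, 0.7008 and 0.8065 CPM, differed by 1.93 ± 0.30 (adjusted p = 0.0598). In all 3 genes the groups do not overlap, as in 10% of all genes. With no filter on low counts these 3 and Grb10 passed the test, 4 of 28449 genes (0.0141%).

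Of the 15 genes named on the higher side, 14 also differed upwards between the KAT6B knockout and E14 (median 0.41), and of the 15 on the lower side 14 differed downwards (median -0.30). Over all genes, 53.4% had the same sign in both contrasts. Pcdhgb5, Pcdhga5 and Pcdhgb6, 3 of the 15 on the higher side, count many of the same reads and are not separate measurements, here and on the other days. Zscan4-ps2 was the exception on the higher side (-0.25) and H4c17 on the lower side (0.09). Lgals9 stood at 1.13 and Gata2 at 0.86, whereas the Pcdhg genes had a median of 0.14 and H6pd stood at 0.05.

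The difference between the 2 contrasts was tested as an interaction. EdgeR called 0 of 19594 genes (0%), with 607 at an unadjusted p under 0.05 (3.1%), and DESeq2 called 1 (0.00352%), Grb10. The 607 became 2063, 347 or 315 without double knockout replicate 3, 1 or 2, 1285 without KAT6B knockout replicate 1 and 919 without KAT6A knockout replicate 1. Luzp1 differed by -0.30 ± 0.16 between the contrasts (unadjusted p = 0.087), Kdm1a by -0.06 ± 0.18 and Magea9 by -0.02 ± 0.37. Grb10, an imprinted adaptor of insulin receptor signalling, had the lowest p (1.84 ± 0.32, adjusted p = 0.777). It was at 56, 57.7 and 42.67 CPM in E14, at 26.76, 14.92 and 13.97 CPM in the KAT6B knockout, at 14.45, 19 and 12.23 CPM in the KAT6A knockout and at 21.33, 17.18 and 19.44 CPM in the double knockout. Every knockout library was thus below every E14 library. The other genes named on the positive side were Zfp532 (0.68 ± 0.17), H6pd (0.80 ± 0.21) and Dock5, a Rac activator (0.62 ± 0.17). On the negative side were H4c17 (-0.67 ± 0.19), Abtb2 (-0.88 ± 0.25), Snhg15 (-0.70 ± 0.20) and Zhx2 (-1.33 ± 0.39). None was called.

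The same lines on other days give further libraries for the same pair of genotypes. Double against KAT6A knockout, edgeR called 10 of 18935 genes on day 0 (0.0528%), 2 of 20533 on day 6 (0.00974%) and 1 of 20225 on day 15 (0.00494%). The replicate block called 25 on day 0 (0.132%) and 0 on day 15. Luzp1 fell on all 3 days, by 0.99 on the log2 scale on day 0, 1.17 on day 6 and 1.17 on day 15 (adjusted p = 0.00495, 0.00085 and 0.0395). The double knockout held 44.6% to 49.5% of the KAT6A mean of Luzp1 over the 4 days. The KAT6A knockout mean was above that of E14 on day 0 (176.8 against 125.2 CPM), day 6 (156.2 against 119.1 CPM) and day 15 (171.7 against 100.2 CPM), scaled over all 48 libraries. The double knockout means on these days, 87.46, 70.2 and 76.62 CPM, were thus nearer to E14 than to the KAT6A knockout. On day 15 the KAT6B knockout was at 93.3% of E14, with ranges that overlap. Kdm1a differed by -1.12 on day 0, -0.95 on day 6 and -0.86 on day 15 (adjusted p = 0.00584, 0.00107 and 0.0687), passing on the first 2 of these days. On day 15 the Luzp1 call was lost with the block and in each fit without 1 library.

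Magea9 stood at 1.31 ± 0.24 on day 0 (adjusted p = 0.0662), at 12.23, 14.6 and 16.47 CPM in the double knockout against 4.954, 5.862 and 7.011 CPM in the KAT6A knockout (scaled over all 48 libraries). On day 6 Magea9 differed by 0.75 ± 0.44, with groups that do not overlap, and on day 15 by -0.21 ± 1.02, with groups that do. Kat6b, whose mean in the double knockout was 71.1% of that in the KAT6A knockout on day 2 on this scale, was at 64.4% on day 0, 82.1% on day 6 and 94.9% on day 15. Among the other genes called on day 0 were Krt7, Ntn1, H19, Nxf7, Nrk, Hap1 and Tdh. Of these, H19, Krt7 and Tdh differed on day 2 by 1.45, 0.93 and -0.57, and none passed there.

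**Figure D5:**
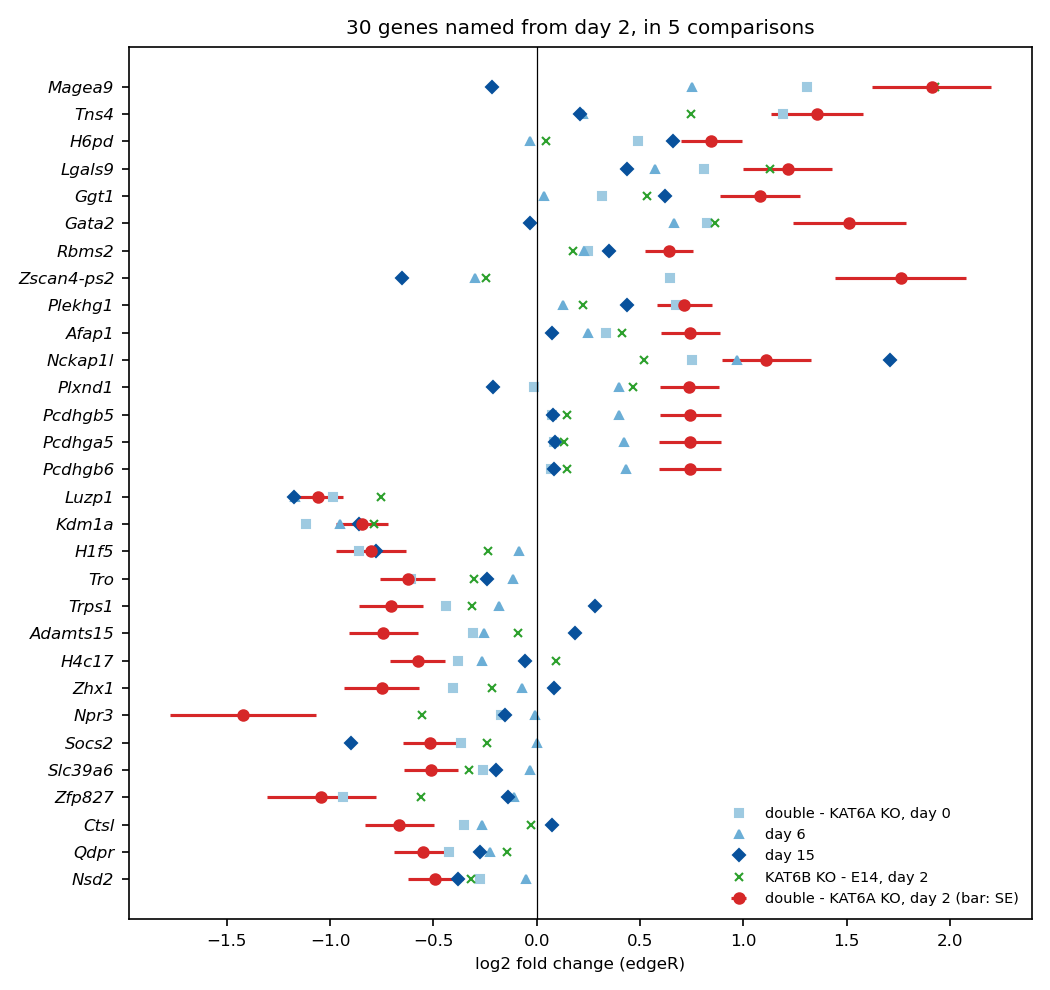
Log2 fold change of the 30 genes named from day 2 (15 higher, 15 lower) in 5 comparisons. Red points are the double knockout over the KAT6A knockout on day 2 with SE bars, blue symbols the same genotypes on days 0, 6 and 15, and green crosses the KAT6B knockout over E14 on day 2. Luzp1 and Kdm1a keep values of -0.76 or lower in every comparison, while the other genes lie on both sides of 0 by day 15.

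Of the 15 genes on the higher side, 14 had the same direction on day 0 (median 0.49), 13 on day 6 (0.40) and 11 on day 15 (0.09). On the lower side, 15 of 15 had it on day 0 (median -0.41), 14 on day 6 (-0.11) and 11 on day 15 (-0.20). The share over all genes was 61.3% on day 0, 59.2% on day 6 and 54.6% on day 15. The Pcdhg genes stood at 0.04 to 0.09 on day 0 and had a median of 0.41 on day 6 and 0.09 on day 15. Trophoblast genes had a median of 0.82 on day 0, 0.23 on day 6 and -0.62 on day 15.

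Whether the difference between the genotypes itself differed between day 2 and day 0 was tested in 1 fit of those 12 libraries. EdgeR called 0 of 19610 genes (0%), with 636 at an unadjusted p under 0.05 (3.24%), and DESeq2 called 1 (0.00348%), Timp3. The 636 became 2055 without double knockout replicate 3 of day 2, 1464 without KAT6A knockout replicate 1 of day 2 and 406 without KAT6A knockout replicate 2 of day 0. Timp3, an inhibitor of matrix proteases, stood at 0.66 on day 0 and -0.43 on day 2, a difference of -1.09 ± 0.20 (adjusted p = 0.8). Fgf15 (-0.90 ± 0.28), Snapc1 (-0.62 ± 0.19) and Boll (-1.05 ± 0.34) were the others named on the negative side. On the positive side were the peptide transporter gene Tap2 (0.89 ± 0.23), Plxnd1 (0.75 ± 0.21), Pcdhgb5 (0.67 ± 0.19) and the Nodal antagonist gene Lefty2 (0.64 ± 0.18). For Luzp1 the difference was -0.07 ± 0.15, for Kdm1a 0.27 ± 0.18 and for Magea9 0.60 ± 0.29.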

How the data were processed

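RNA of 48 libraries was depleted of ribosomal RNA and sequenced with a directional kit, 150 bp paired-end, per the labels' protocols. Reads were aligned with HISAT2 to GRCm39, per the submitters' processing notes. Sources used here name no HISAT2 version, counting tool, strand setting or annotation release. The deposited values are whole-number counts per gene as the authors made them, with no normalization. Of 36983 entries, 48 with a repeated identifier were left out.

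Groups came from the sample titles. EdgeR 4.0.16 (R 4.3.3) was run with TMM scaling, filterByExpr (minimum count 10, minimum total 15) and robust quasi-likelihood F tests over the 12 libraries of a day. DESeq2 1.42.0, other scalings, filters and subsets were alternatives. The scripts were tested on simulated data. The series' text gives 3 independent differentiation experiments, so p-values measure the spread between those. On day 2, deviations of same-numbered KAT6A and double knockout libraries from their group means correlated at 0.126, 0.19 and 0.314. Those of unlike numbers correlated at -0.217 to 0.0598, and deviations within a group sum to 0, so these values are tied to each other. The numbers were taken to pair the samples, which the labels do not state, and a replicate block was fitted as well. That block was fitted for every contrast, but the other genotypes and days were not checked for pairing. Within the KAT6A and the double knockout of day 2, no 2 libraries of a group agreed within sampling noise, and other groups were not checked. The biological coefficient of variation was 21%, and counting error adds little at these depths except for genes near 1 CPM.

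The rule for named genes took Kat6a and Kat6b, 15 genes in each direction with at least 1 CPM on average and groups that do not overlap (called genes first, then by p), 2 genes of each list by p, and 4 in each direction of each interaction. Members and lists were chosen with earlier results of these data known. Further list members were named after their values were seen. One gene called on day 0 is not reported here.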

Additional observations from a re-analysis of the deposited data

How the results depend on the processing

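For the double against the KAT6A knockout on day 2, RLE size factors and a filter of 1 CPM each called the same 3 genes. The number called was 11 with no filter on low counts, 110 with DESeq2, 0 with the 2 groups alone, 5 with the replicate block and 0 to 35 without 1 library. The KAT6B knockout against E14 gave 4 with no filter, 23 with DESeq2 and 0 to 3 without 1 library, the 3 being Aim2, Grb10 and Magea9 without KAT6B knockout replicate 1. The interaction gave 1 with DESeq2 and 0 to 1 without 1 library, Grb10 without KAT6B knockout replicate 1. Day 0 gave 36 with no filter, 129 with DESeq2, 79 with the 2 groups alone, 25 with the block and 0 to 10 without 1 library, where 0 is the fit without KAT6A knockout replicate 1. Day 6 gave 11 with DESeq2 and 0 with the 2 groups alone. Day 15 gave 2 with the 1 CPM filter, 61 with DESeq2, 0 with the 2 groups alone, 0 with the block and 0 in each fit without 1 library. The difference between day 2 and day 0 gave 1 with DESeq2. The cause of these shifts was not tested. The block changed no other count of calls by more than 1.5 times.

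Some named genes turned in sign between fits of day 2. Lefty2, at -0.0030 in the main fit, was at 0.0059 with no filter, 0.0030 with the 1 CPM filter and -0.105 to 0.0591 without 1 library. Without 1 library Afp spanned -2.41 to 0.38, Hoxb4 -1.35 to 0.15, Boll -0.22 to 0.11 and mt-Atp6 -1.39 to 0.14. In the main fit Boll was near 0 (-0.01), but Afp (-1.78), Hoxb4 (-0.78) and mt-Atp6 (-0.69) were not. Afp was at 0.1724, 1.396 and 0.07098 CPM in the KAT6A knockout, so its difference rests on replicate 2. Among genes under 1 CPM, such as the 2-cell-like list, depth limits what can be told apart.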

Other observations

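Replication-dependent histone genes, whose transcripts mostly lack a poly(A) tail and are kept by ribosomal RNA depletion, were described after their values were seen. Of 64 such genes tested, 63 were on the lower side in the double knockout on day 2 (median log2 difference -0.34), against 9733 of all 19594 genes. An unadjusted p under 0.05 was reached by 19, all lower, against 2.61% of all genes, and none was called by edgeR. Whether these genes vary independently between libraries was not tested, so 63 and 19 are not counts of separate measurements. H1f5 and H4c17 led them, and H4c11 was at 159.3 ± 12.78 CPM in the KAT6A knockout and 115.8 ± 9.458 CPM in the double knockout (SD, n = 3). Summed over the 64 genes, the KAT6A libraries held 17381, 14202 and 19341 CPM and the double knockout libraries 12874, 10092 and 15916 CPM, so the group ranges overlap while the double knockout was lower within each of the 3 same-numbered pairs. E14 held 13940, 14732 and 13784 CPM and the KAT6B knockout 11716, 20453 and 12095 CPM. The histone median was -0.45 on day 0, -0.14 on day 6 and -0.26 on day 15 for the double against the KAT6A knockout, and 0.01 for the KAT6B knockout against E14 on day 2.

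All 8 Zscan4 genes and pseudogenes tested were on the higher side on day 2 (0.65 to 1.76), with a median of 0.76 on day 0, -0.29 on day 6 and -0.49 on day 15, and of -0.21 for the KAT6B knockout against E14 on day 2.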
